A study of Mus musculus with 2 samples.

Results

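The heat shock chaperones described here are 10 mouse genes: Hspa1a, Hspa1b, Hspb1, Hspa8, Hsp90aa1, Hsp90ab1, Hsph1, Dnajb1, Hspd1 and Hspe1. They were taken by name, as the array probes whose printed gene name equals one of these symbols, with control spots left out. The array named 9 of the 10 genes, on 15 of its 55681 probes and among 34650 gene names. It had no probe under the name Hspa1b, but the probe named Hspa1a carries the accessions of both genes.

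RNA was measured on 2 one-colour arrays, 1 per group, each hybridized with a pool of 3 experiments. Both groups came from E14Tg2A, an embryonic stem (ES) cell line of mouse strain 129/Ola that was grown with serum and LIF. EpiSC, epiblast stem cells, were made from the ES cells, and ELA-EpiSC from the Epiblast-Like Aggregates (ELA) that ES cells form once serum and LIF are withdrawn. For both, a chemically defined medium carried Activin A at 20 ng/mL and FGF2 at 12 ng/mL, so the groups shared the line and the factors and differed in the starting cells. The pair asks how much the expression of EpiSC depends on that route, and each group stands for 1 line and 1 pool.

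Chaperones hold unfolded or newly made proteins and help them reach or regain their shape. In the cytosol the HSP70 machine is loaded by HSP40 proteins and reset by nucleotide exchange factors, HSP90 takes over late folding steps of kinases and receptors, and small heat shock proteins hold unfolding proteins without using ATP. In mitochondria the chaperonin of Hsp60 and Hsp10 folds imported proteins. Many of these genes are induced by heat and other protein-damaging stress through the transcription factor HSF1, which binds repeats of a short element in their promoters, while others are made at a high basal level in growing cells. ES cells are known for a high basal content of several chaperones.

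Probe sequences are shown for the HSP70 members because 1 of these probes cannot separate 2 genes and the others differed along 1 transcript. The 60-base probe of Hspa1a starts at base 1925 of its transcript, on chromosome 17 at 35107117 to 35107176, minus strand, in the mm9 build that the file headers name. Of the 3 probes of Hspa8, on the plus strand of chromosome 9, those starting at bases 730 and 1812 are shown. The first lies at 40611142 to 40611201 and the second spans 40612755 to 40613050, an interval longer than the probe. All are given in lower case throughout, since no base is marked. Positions are those of the array's own transcripts, and whether a probe lies in coding or other exonic sequence was not analysed here.
Hspa1a probe at 1925: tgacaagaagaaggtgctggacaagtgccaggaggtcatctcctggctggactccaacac
Hspa8 probe at 730: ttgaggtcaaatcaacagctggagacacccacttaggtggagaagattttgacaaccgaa
Hspa8 probe at 1812: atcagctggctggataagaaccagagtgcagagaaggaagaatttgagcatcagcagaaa

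Promoters are shown for 3 members in which the letters of the element bound by HSF1 were found. The letters searched were GAANNTTC and TTCNNGAA, each its own reverse complement, so that 1 strand covers both, and a longer run of 3 units, GAANNTTC followed by NNGAA or TTCNNGAA followed by NNTTC, which contains the short ones. The search covered the 250 bases before each start in the RefSeq promoter table of build GRCm38.p6. Over all 32817 windows, 12.8% held a short match and 0.466% a long one. The table had windows for 7 of the 10 members, namely Hspa1a, Hspa1b, Hspb1, Hsph1, Dnajb1, Hspd1 and Hspe1. Capitals mark the short matches, which merge where they overlap.
Hspa1a, chr17:34972157-34972406, minus strand: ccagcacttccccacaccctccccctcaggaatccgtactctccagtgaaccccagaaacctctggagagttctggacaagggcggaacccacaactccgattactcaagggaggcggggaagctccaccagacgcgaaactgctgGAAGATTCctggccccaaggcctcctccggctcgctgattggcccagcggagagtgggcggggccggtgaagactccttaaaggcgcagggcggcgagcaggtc
Hspb1, chr5:135887669-135887918, plus strand: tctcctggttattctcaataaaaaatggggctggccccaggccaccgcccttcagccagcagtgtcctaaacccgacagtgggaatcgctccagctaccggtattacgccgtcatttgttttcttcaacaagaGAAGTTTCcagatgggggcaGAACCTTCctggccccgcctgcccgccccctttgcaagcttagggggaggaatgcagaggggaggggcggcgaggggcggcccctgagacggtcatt
Hspe1, chr1:55087898-55088147, plus strand: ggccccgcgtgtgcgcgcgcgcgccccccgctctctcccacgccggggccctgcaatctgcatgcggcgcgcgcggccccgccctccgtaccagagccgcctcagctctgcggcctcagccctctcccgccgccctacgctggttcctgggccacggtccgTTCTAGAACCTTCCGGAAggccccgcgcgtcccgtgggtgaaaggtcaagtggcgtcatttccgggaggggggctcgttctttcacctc

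Hspe1 held 3 overlapping short matches, which make 2 overlapping long ones. Hspd1, its neighbour on the opposite strand, had the same stretch in the second of its 2 windows and 0 matches in the first. Hspb1 held 2 short matches and 0 long ones. Hspa1a and Hspa1b held 1 short match each, and their windows were identical at 247 of 250 bases. Counted from 1 at the 5′ end of the window, the substitutions from Hspa1a to Hspa1b were C44T, T47C and T249G. Hsph1 had 1 short match in each of its 2 windows, and Dnajb1 had 0 in either of its windows. A match is a description of these letters and says nothing of binding in these cells.

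Levels are log2 of the spot intensity after background correction and quantile normalization, and a difference is log2 ELA-EpiSC minus EpiSC of the same probe. Probes differ in how brightly they bind, so levels are compared between arrays and not between probes. A gene took its brightest detected probe, and was counted as past the threshold where the difference exceeded 1 (log2), which is a 2-fold change, with a mean level of at least 7.5. With 1 array per group there is no replicate check and no p-value. The only error available was that of spots: the difference had an SD of 0.10 over 312 probes printed 10 times each, which covers neither labelling nor culture.

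On the chip, between 65.0% and 65.8% of the probes were well above background, and 0 spots were saturated on either array. Median spot signal was 71.7 intensity units for EpiSC and 79.1 for ELA-EpiSC. The 8 detected spike-in probes were all dimmer for ELA-EpiSC, with a mean log2 difference of -0.41 (-0.57 to -0.29). Setting them equal moved the median difference of all genes from 0.00 to 0.62, and scaling to the array median moved it to 0.15. Differences are thus relative to the bulk of genes, and a sign that another scaling turned is named beside the value.

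Markers of the labelled cell type were present. All 7 pluripotency markers and all 5 epiblast markers were well above background on both arrays. Pou5f1 (Oct4) had levels of 14.28 (EpiSC) and 14.47 (ELA-EpiSC), and Fgf5 of 15.19 and 15.34, a pair whose order both 75th percentile scalings turned. Past 1, Tdgf1 (1.19) among the pluripotency markers and Pou3f1 (1.46) among the epiblast markers were higher in ELA-EpiSC, and Dppa4 (-1.05) of the first list was higher in EpiSC. The detected probes of Tdgf1 spanned 0.45 to 1.21 and those of Dppa4 -1.32 to -0.27, so not every probe passed 1. Dnmt3b of the epiblast list differed by -0.84. Markers of other cell types also moved. Of 8 markers of primitive and visceral endoderm, 5 were bright enough to count. The 2 past 1 higher in EpiSC were Ttr (-3.47) and Gata4 (-2.39), and the 1 past 1 higher in ELA-EpiSC was Pdgfra (1.77). Levels of the 8 markers spanned 6.26 to 13.58 in EpiSC and 6.06 to 12.66 in ELA-EpiSC. Ttr and Apoa1 were not well above background in ELA-EpiSC. Of 6 fibroblast markers, 3 counted and Col1a1 was past 1 higher in ELA-EpiSC (3.72), with levels of 6.16 to 10.90 in EpiSC and 6.33 to 10.97 in ELA-EpiSC and Postn not well above background in EpiSC. Of 4 neural markers, 3 counted and Nes was past 1 higher in ELA-EpiSC (2.10), while neither array measured Pax6 well above background. Of 6 trophoblast markers, 5 counted and Elf5 was past 1 higher in EpiSC (-1.48). Their part in the chaperone values was not tested, and in such bulk RNA fewer cells of a type and less RNA per cell cannot be told apart.

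Among the 10 chaperones, Hspb1 was the gene that passed the threshold, 2.22-fold higher in ELA-EpiSC. Dnajb1 was the next furthest from 0, at 1.77-fold lower in ELA-EpiSC, and the 3 probes of Hspa8 gave different sizes of a lower value. HSP90, Hsp110 and the mitochondrial chaperonin pair differed by under 0.5 in the values reported. Hspe1 reached -0.55 under 75th percentile scaling, and Hsp90ab1 reached 0.62 under spike-in scaling. Of the 8 genes with a mean level of at least 7.5, 4 were higher in each group, beside shares of 50.2% (ELA-EpiSC) and 49.8% (EpiSC) over all genes tested. Their median was -0.08, beside 0.00 over the 16653 genes tested. The split depended on scaling, with 7 higher in ELA-EpiSC under spike-in scaling, 2 under median scaling and 1 under both 75th percentile scalings.

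**Figure D1:**
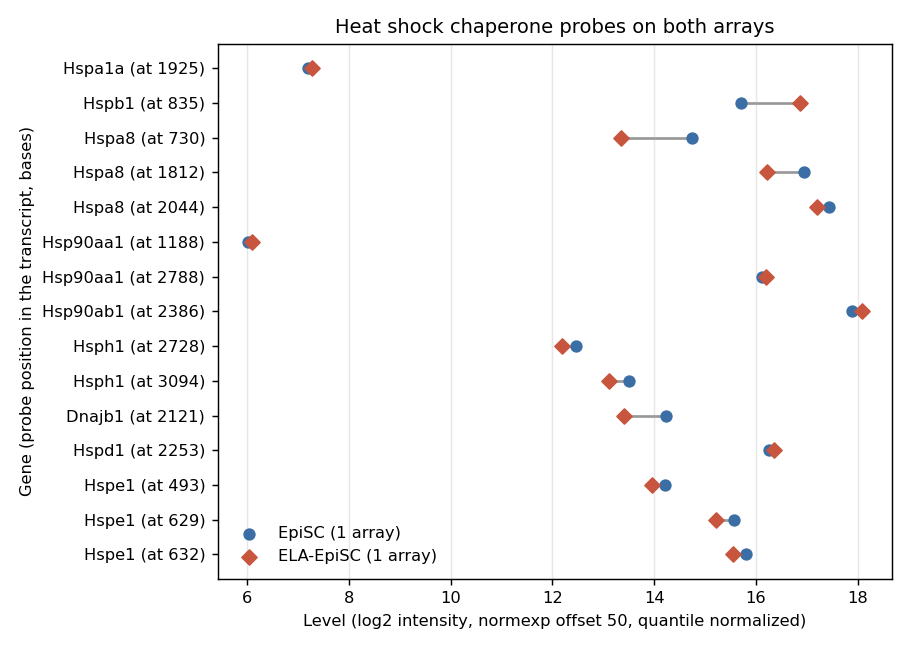
Level of each of the 15 chaperone probes (rows, with the probe's start in the transcript) in EpiSC (circles) and ELA-EpiSC (diamonds), 1 array each, in log2 intensity on the x axis; no error bar exists for a single array. Hspb1 moves from 15.71 to 16.86, Hspa8 at base 730 from 14.74 to 13.35, and the Hspa1a probe stays near the bottom of the scale at 7.21 and 7.29.

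Past 1, 1 chaperone gene was higher in ELA-EpiSC, where 4.56% of all genes tested were, and 0 were higher in EpiSC, where 4.47% were. Past 0.5, 1 gene was higher in ELA-EpiSC (Hspb1) beside 13.6% of all genes, and 1 was higher in EpiSC (Dnajb1) beside 13.7%. The other 6 lay within 0.5, as did 12103 of the 16653 genes tested. On 8 genes, each of these counts lies within 1 gene of the share over all genes. Hspa8 lay within 0.5 by its brightest probe, while the mean of its detected probes was -0.78. Relative to the median of all genes, the chaperone median was -0.08 in the values reported and -0.28 under the 3 scalings that shift each array by a constant.

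Hspb1 codes for Hsp25, a small heat shock protein that holds unfolding proteins and binds actin filaments. Its probe, on chromosome 5 at 136365366 to 136365425, plus strand (mm9), read 53183 units for EpiSC and 116499 for ELA-EpiSC. On the normalized log2 scale the levels were 15.71 and 16.86, a difference of 1.15, with 96.5% of all genes tested lower. The difference was 11.3 times the spot SD. It was above 0 under all 14 alternatives, and under 1 in 2 of them, with 0.79 for the scanner's processed signal and 0.84 for 75th percentile scaling.

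Hspa8 codes for Hsc70, the HSP70 that cells make without stress, which folds new proteins and strips clathrin from vesicles. At base 730 the EpiSC level was 14.74 and the ELA-EpiSC level 13.35, which differ by -1.39, or 2.62-fold lower in ELA-EpiSC. At base 1812 the pair of levels was 16.94 and 16.23, differing by -0.71. At base 2044, the brightest probe and hence the value of the gene, it was 17.43 and 17.20, a difference of -0.23 that spike-in scaling turned to 0.13. The difference thus shrank from the 5′ to the 3′ probe, and the first probe kept a lower level in ELA-EpiSC under every scaling, at -1.54 to -0.84. Brightness rose along the same probes, so position and brightness cannot be told apart here.

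Among single probes, 4.13% of those bright enough were past 1 higher in EpiSC and 4.23% past 1 higher in ELA-EpiSC. The chaperones had 1 of each, Hspa8 at base 730 and Hspb1. The 5′ probe of Hspa8 minus its 3′ probe gave -1.16 over 1314 bases. Over 1037 transcripts with detected probes at least 1000 bases apart, this quantity had a median of -0.05, with the 5th and 95th percentiles at -0.62 and 0.53. It was below 0 in 57.3% of them, and 0.482% had a lower value than Hspa8. Hsph1, with 366 bases between its probes, gave 0.12, and Hspe1, with 139 bases between its outermost probes, gave -0.00. The 1037 transcripts were not matched to Hspa8 for probe brightness, and the cause of the gradient in Hspa8 was not tested.

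**Figure D2:**
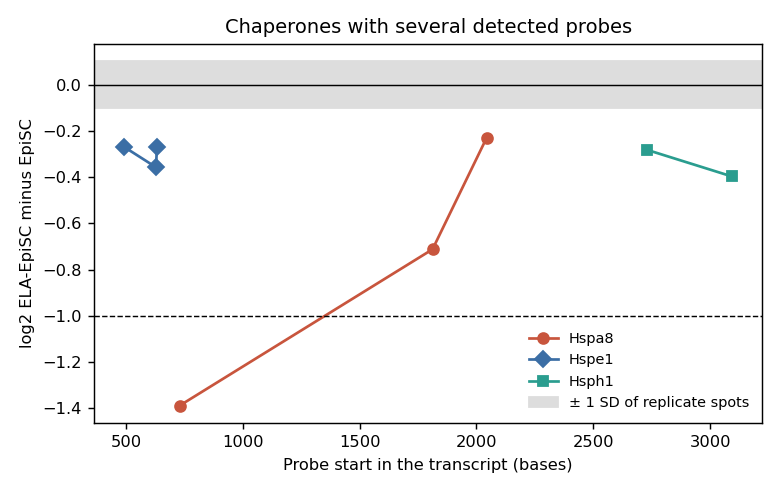
Difference in log2 ELA-EpiSC minus EpiSC (y axis) against the start of each detected probe in its transcript in bases (x axis), for the 3 chaperones with several detected probes; lines join probes of 1 gene, the grey band is 1 SD of replicate spots either side of 0 and the dashed line is the threshold. Hspa8 goes from -1.39 to -0.23, while the probes of Hspe1 lie within -0.36 to -0.27 and those of Hsph1 at -0.28 and -0.40.

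Hspa1a and Hspa1b code for the stress-induced HSP70, the gene pair most often used as a readout of the heat shock response. Their shared probe read 110.4 units over a local background of 29 in EpiSC and 133.9 units over 26.5 in ELA-EpiSC. It was well above background on both arrays, at levels of 7.21 and 7.29, under the minimum of 7.5 for counting. The difference of 0.08 was smaller than the spot SD, and it was -0.08 under 75th percentile scaling and 0.61 under spike-in scaling. A difference between the groups in inducible HSP70 was not detectable at this signal.

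Dnajb1 codes for the HSP40 that delivers unfolded proteins to HSP70 and is itself a heat shock gene. Its probe, on chromosome 8 at 86135660 to 86135719, plus strand (mm9), gave levels of 14.23 in EpiSC and 13.41 in ELA-EpiSC. The difference of -0.82 did not reach 1, and 6.25% of all genes tested had a lower one. It was below 0 under all 14 alternatives, from -0.91 to -0.22. Hsph1, the Hsp110 that exchanges nucleotide on HSP70, stood at 12.46 and 12.18 on the first of its probes and at 13.50 and 13.11 on the brighter second. Its differences of -0.28 and -0.40 turned to 0.40 and 0.24 under spike-in scaling.

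**Figure D3:**
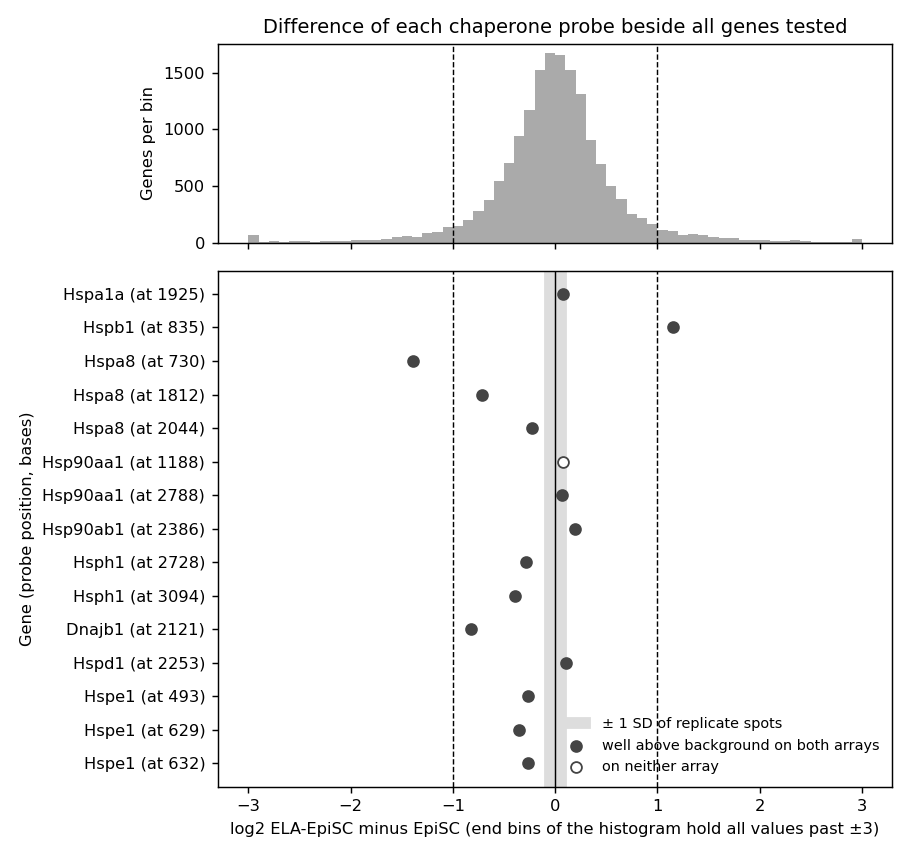
Lower panel, difference of each chaperone probe (rows) in log2 ELA-EpiSC minus EpiSC, with the grey band at 1 SD of replicate spots either side of 0 and dashed lines at the threshold of 1; upper panel, the same quantity for the 16653 genes tested, as genes per bin. The Hspb1 probe (1.15) and the Hspa8 probe at base 730 (-1.39) lie past the dashed lines, and the open circle is a probe well above background on neither array. Negative values of Hspe1 and Hsph1 and of Hspa8 at base 2044 turn positive under spike-in scaling.

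Both cytosolic HSP90 genes differed little. Hsp90aa1, the stress-inducible alpha form, had levels of 16.13 (EpiSC) and 16.20 (ELA-EpiSC), differing by 0.07, within the spot SD, with a sign that turned under 4 alternatives. A second probe of this name, designed on an expressed sequence tag, was below the detection limit for both groups and gives no value. Hsp90ab1, the constitutive beta form, stood at 17.88 and 18.08, a difference of 0.20 that became negative under both 75th percentile scalings. Neither gene came near the threshold under any alternative, with a widest value of 0.62 for Hsp90ab1 under spike-in scaling.

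Hspd1 (Hsp60) and Hspe1 (Hsp10) code for the barrel and the lid of the mitochondrial chaperonin and are transcribed from a shared promoter. Hspd1 had levels of 16.25 (EpiSC) and 16.35 (ELA-EpiSC), differing by 0.10, about the spot SD, with a sign that turned under both 75th percentile scalings and median scaling. For Hspe1 the probe at base 493 stood at 14.22 and 13.95, that at base 629 at 15.57 and 15.22, and that at base 632 at 15.81 and 15.54. Its differences of -0.27, -0.36 and -0.27 turned positive under spike-in scaling. The latter 2 probes overlap by 57 bases with 1 mismatch, so they are not separate measurements. The probe at base 632 shares a run of 30 bases with a probe named for a chromosome 12 region. That at base 493 shares 24 bases with another such probe, and the part of cross-binding in these values was not tested. In the values reported, Hspd1 and Hspe1, neighbours around the promoter stretch printed above, thus had opposite signs. Both 75th percentile scalings, median scaling and spike-in scaling removed this contrast.

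**Figure D4:**
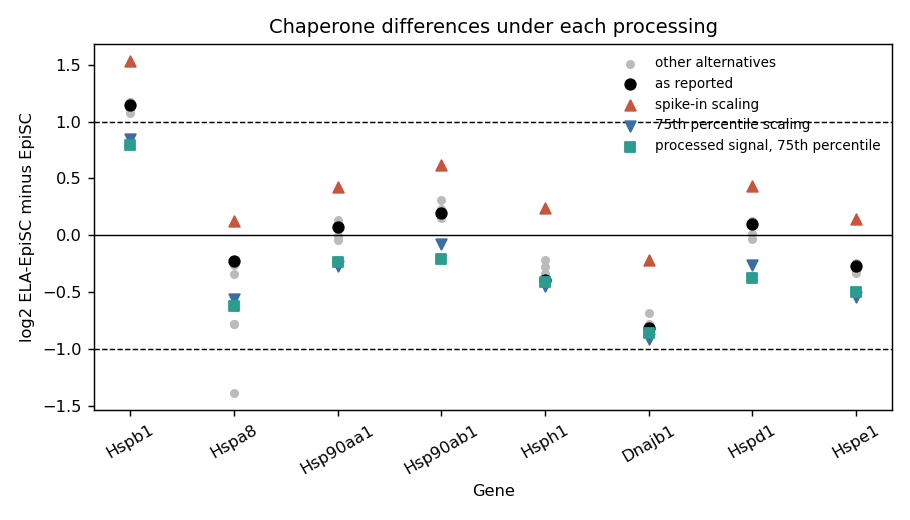
Difference in log2 ELA-EpiSC minus EpiSC (y axis) of the 8 chaperone genes with a mean level of at least 7.5 (x axis), under the values reported (black), 3 named scalings and the remaining alternatives (grey); dashed lines are at 1 and -1. Hspb1 stays above 0 and Dnajb1 below 0 throughout, the other 6 genes cross 0 under at least 1 scaling, and the lowest grey point of Hspa8 (-1.39) is its probe nearest the 5′ end.

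The other small heat shock proteins were the family whose members passed the threshold most often. Of 9 genes, 7 were detected and 6 were bright enough to count, and 4 of these were past 1 higher in ELA-EpiSC, where 4.56% of all genes were. Their median was 1.25. Hspb6 rose from 9.36 (EpiSC) to 11.00 (ELA-EpiSC), or by 1.64; its protein, Hsp20, is abundant in muscle. Cryab (alpha B crystallin), known from lens and heart, rose from 9.25 to 10.84, a difference of 1.59, and by 1.78 on its other probe. Hspb2, the neighbour of Cryab on the chromosome, rose from 8.51 to 9.82, a difference of 1.31. Hspb8, the partner of Bag3 in a complex that sends proteins to autophagy, rose from 9.32 to 10.50, a difference of 1.19.

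These 4 genes were past 1 under all 14 alternatives of correction, scaling and probe rule, with lowest values of 1.60, 1.55, 1.26 and 1.13. The remaining members counted were Hspb11 at -0.45, which spike-in scaling turned to 0.24, and Hspb9 at -0.00, which turned positive under median and spike-in scaling. Hspb3 and Hspb7 were well above background on neither array, and Cryaa stood at 6.31 and 6.42, under the minimum. The list was drawn up with earlier results of these arrays known, and its count is a description of 2 arrays. Of the fibroblast markers counted, Col1a1 was higher on the same array (3.72). Col1a2 (0.08) and Thy1 (0.05) were within the spot SD and turned negative with processed signal. Among those under the minimum, Col3a1 stood at 6.52 (EpiSC) and 8.40 (ELA-EpiSC), a difference of 1.88. Dcn differed by -0.33 and Postn by 0.17, and these uncounted markers were not compared across scalings. Of the neural markers counted, Nes differed by 2.10, Tubb3 by 0.72 and Sox1 by -0.09, the last turned by median and spike-in scaling. The part of these cell types in the small heat shock protein values was not tested. Among the promoters of the 4 genes, Hspb6 had 1 short match in 1 of its 2 windows and Hspb8 had 0, and those of Hspb2 and Cryab were not analysed here.

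**Figure D5:**
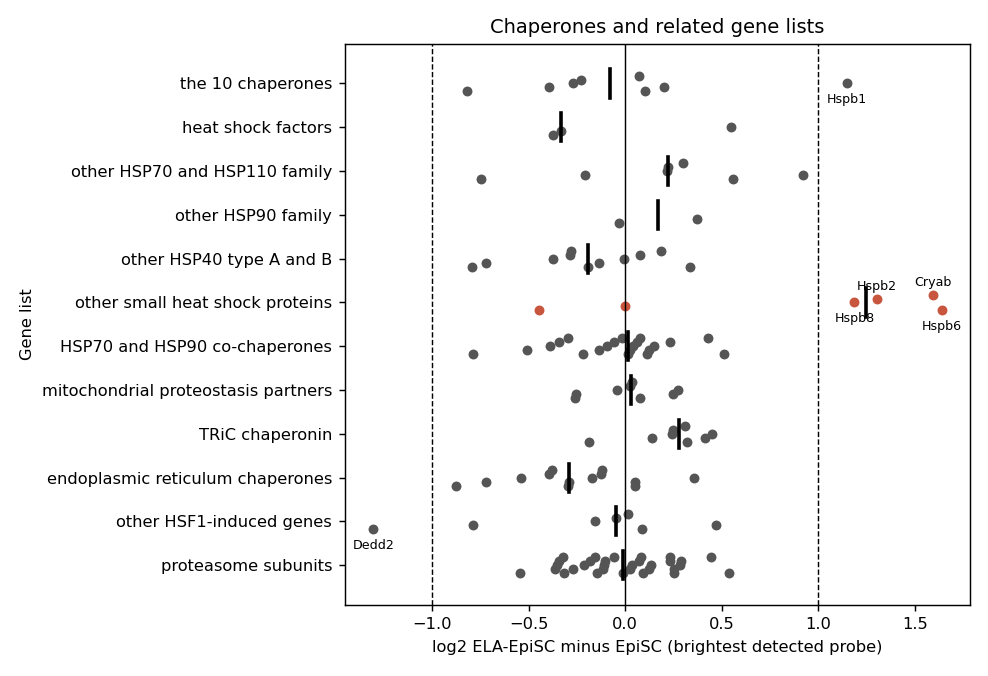
Difference in log2 ELA-EpiSC minus EpiSC (x axis) of each gene counted, by gene list (rows); each point is a gene by its brightest detected probe, black bars are list medians, dashed lines mark the threshold of 1, and vertical offsets within a row only separate points. The 4 small heat shock proteins past 1 and Hspb1 lie at the right and Dedd2 at the left, while medians other than that of the small heat shock proteins lie between -0.33 and 0.28 and change sign under at least 1 alternative.

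Heat shock factors and their partner protein were read next. Of 6 listed genes, 3 were bright enough to count, and 0 passed 1, beside 4.56% (ELA-EpiSC) and 4.47% (EpiSC) of all genes tested. Hsf1, the factor that drives the heat shock response, had levels of 11.55 (EpiSC) and 12.10 (ELA-EpiSC), differing by 0.55, which was positive under every alternative and 1.24 under spike-in scaling. Hsf2 (-0.33) and Hsbp1 (-0.37), a protein that binds HSF1, had values that turned positive under spike-in scaling. Of 8 other genes listed here as induced through HSF1, 7 counted, with a median of -0.05 that turned positive under spike-in scaling. Dedd2, a death effector domain protein, fell from 12.78 (EpiSC) to 11.47 (ELA-EpiSC), or by -1.30, and by -0.64 once spike-ins were set equal. P4ha1, a collagen prolyl hydroxylase, differed by -0.79, with -0.31 on its other probe, and Serpinh1 (Hsp47), a collagen chaperone, by 0.47.

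Of the partners of the chaperones, 0 passed 1 in the values reported, beside 4.56% (ELA-EpiSC) and 4.47% (EpiSC) of all genes tested. Under at least 1 alternative, Dnaja1 reached -1.04, while Hspa9 (1.41), Hspa12b (1.15), Fkbp5 (1.08), Trap1 (1.05) and Dnajb2 (1.01) passed 1. In the other HSP70 and HSP110 genes, 7 of 9 counted and 5 were higher in ELA-EpiSC (50.2% of all genes), with a median of 0.22 that was -0.01 for processed signal. Hspa9 (mortalin), the HSP70 of mitochondria, stood at 14.53 and 15.45, a difference of 0.92 that reached 1.41 under spike-in scaling, and Hspa12b differed by 0.56. Hspa2, the testis HSP70, differed by -0.75. Of the other HSP40 genes of types A and B, 11 of 14 counted and 8 were higher in EpiSC (49.8% of all genes), with a median of -0.19 that became 0.42 under spike-in scaling. The furthest from 0 were Dnaja4 (-0.79), Dnaja1 (-0.72, with -0.12 on its other probe) and Dnajb6 (-0.37, positive under spike-in scaling). The 4 probes of Dnajb6 spanned -0.72 to -0.34. Of the other HSP90 genes, Trap1 of mitochondria differed by 0.37 and Hsp90b1 of the endoplasmic reticulum by -0.03, the latter positive under spike-in scaling.

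All 21 co-chaperones of HSP70 and HSP90 counted, with a median of 0.01 whose sign turned under several alternatives. Bag3, a nucleotide exchange factor induced in heat shock, had levels of 13.75 (EpiSC) and 12.96 (ELA-EpiSC), differing by -0.79, and stayed below 0 throughout. Unc45a, an HSP90 partner for myosin folding, differed by -0.51 and turned positive under spike-in scaling. The brighter probe of Bag6, a chaperone of membrane proteins in the cytosol, gave 0.51 and the dimmer one -0.20. Of 8 mitochondrial partners of Hspd1 and Hspe1, all lay within 0.5, beside 12103 of the 16653 genes tested. Grpel2 stood at 0.27, Lonp1 at -0.26 and Tomm20 at -0.26, the last 2 turned by spike-in scaling. Dnajb1 and Bag3, both partners of HSP70 in the cytosol, had values of similar size below 0, and mitochondrial Hspa9 lay above 0. These single genes do not stand for their compartments. In the values reported, 11 of the 21 co-chaperones lay above 0 and 10 below it. The 8 mitochondrial partners had 5 values above 0 and 3 below it, and mitochondrial Hspe1 stood at -0.27.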

How the data were processed

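The authors hybridized Cy3-labelled RNA, 50 ng per the labels and a larger amount per the study's methods, to 1 Agilent array per group. The deposited scanner output gives the intensity of each spot, not log transformed, from Feature Extraction 10.7.3.1 per the file headers (the submitters' processing notes name version 9.1). A log2 table, deposited by the authors after background correction and quantile normalization, served as an alternative. The source fields name an Argonaute precipitate and total RNA at 0DIV, against the titles. The titles were used.

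Mean spot signal and median local background were corrected by normexp (offset 50) with limma 3.58.1 in R 4.3.3. Control and outlier-marked spots (158 and 117) were left out, both arrays were quantile normalized, and spots of 1 probe were averaged on the log2 scale. Detection required a share of at least 0.5 of a probe's spots to be above background by the scanner software's flag. The code was tested on simulated data. Besides all 10 members, the text names from each pathway list the 3 genes furthest from 0 and all past 1, among those detected on both arrays with a mean of at least 7.5. Members and lists were chosen with earlier results of these data known. The number of arrays limits the precision.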

Additional observations from a re-analysis of the deposited data

How the results depend on the processing

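The probe nearest the 5′ end was added as an alternative after the data had been seen. No paired analysis was possible because a single array stood for each group. The count of chaperone genes past 1 higher in ELA-EpiSC, 1 (Hspb1), was 0 with processed signal, 0 with 75th percentile scaling and 0 at a threshold of 2. The count higher in EpiSC, 0, was 1 with the probe nearest the 5′ end (Hspa8) and 1 at a threshold of 0.5 (Dnajb1). The median of -0.08 was -0.39 with processed signal, -0.36 with 75th percentile scaling and 0.33 with spike-in scaling; the last 2 and median scaling add a constant per array by construction, and the cause of the other shift was not tested. Of 112 values of single genes under the alternatives, 82 moved within the spot SD and 30 moved further. Signal over background limits the Hspa1a probe, whose mean level lay under the minimum of 7.5.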

Other observations

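Other folding and turnover systems passed 1 in 0 genes, beside 4.56% (ELA-EpiSC) and 4.47% (EpiSC) of all genes tested. Of 9 genes for TRiC, the chaperonin that folds actin and tubulin, 8 were bright enough to count and 7 were higher in ELA-EpiSC (50.2% of all genes tested), with a median of 0.28 that was -0.02 with processed signal. Cct8 had levels of 14.98 (EpiSC) and 15.43 (ELA-EpiSC), differing by 0.45. Cct7 differed by 0.41 and Cct2 by 0.32, the latter negative under both 75th percentile scalings. Cct3 differed by -0.19 and turned positive under spike-in scaling.

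All 13 chaperones and folding enzymes of the endoplasmic reticulum counted, and 10 were higher in EpiSC (49.8% of all genes tested), with a median of -0.29 that became 0.34 under spike-in scaling. Sdf2l1 had levels of 11.39 (EpiSC) and 10.51 (ELA-EpiSC), differing by -0.88, and Manf at 13.98 and 13.26, a difference of -0.72. Both were below 0 under every alternative. Pdia4 (-0.54) turned positive under spike-in scaling. All 31 proteasome subunits counted, with a median of -0.01 whose sign depended on the scaling and a range from -0.55 for Psmb1 to 0.54 for Psmd2, with Psmc4 next at 0.45.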
